A study of Mus musculus with 282 samples.

Results

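Proteasome subunit genes were described across single mouse hematopoietic stem cells (HSCs). They were taken as every protein-coding gene whose symbol is Psma, Psmb, Psmc, Psmd or Psme followed only by a number. The rule found 43 of the 49671 Ensembl genes in the count table, and it used no measured value. Bone marrow was the source, and the sorted phenotype was LSK (no lineage markers, but Sca-1 and Kit) with CD48-/lo and CD150+. All mice carried the alleles R26rtTA/rtTA and Col1A1H2B-GFP/H2B-GFP, a doxycycline-controlled transactivator and a histone-GFP reporter that depends on it, and received no doxycycline. The series text gives 6 mice, 12 to 22 weeks of age, and 2 experiments. All cells thus formed 1 untreated group with no second condition. Of 282 cells, 232 had at least 100000 gene reads and at least 1000 genes and were kept. The labels name a library number that begins with 29 or 32 and an HSC code, and these give 6 sets of cells, with L29 or L32 for the library number. L29 HSC-3 had 46 kept cells and L29 HSC-4 had 43, and the L32 sets HSC-2 to HSC-5 had 22, 44, 38 and 39. Values of the 6 sets are listed in this order throughout. The labels do not say which mouse a cell came from, so a set may or may not be 1 animal. Every SD or p over sets therefore describes how these sets differ, and that spread may be technical.

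Kept cells held between 116009 and 1680714 gene reads (median 280096), with no molecular identifiers. Intervals on shares of cells treat all kept cells as independent, so they cover counting error only and leave out differences between sets. Of the HSC markers, Meis1 reached 10 CPM (counts per 1000000 gene reads) in 88.4% of kept cells, Kit in 84.5%, Hlf in 74.6%, Ly6a in 72.4%, Mecom in 59.9% and Procr in 55.6%. Fgd5 reached it in 27.2% and Slamf1, the gene of the CD150 used in the sort, in 19.4%. No marker of B cells (5 genes), myeloid cells (9) or T and NK cells (5) reached it in 10% of cells, and the highest of these was seen in 7.76% of cells. Of 5 genes each, those of megakaryocytes had 3 that did (Pf4, Itga2b and Gp9), of endothelium and stroma 2 (Pecam1 and Col1a2), of dendritic cells 1 (Flt3) and of erythroid cells 1 (Hbb-bs). Cells of L29 HSC-4 had fewer genes (median 4151, other sets 5126 to 5686) and more mitochondrial reads (median 6.66%, other sets 3.28% to 3.73%).

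The proteasome is the protease that degrades proteins tagged with ubiquitin. Its core particle is a barrel of outer alpha rings (Psma genes) and inner beta rings (Psmb genes), and 3 of the beta subunits, Psmb5, Psmb6 and Psmb7, carry the proteolytic sites. In cells of the immune system and in cells exposed to interferon gamma these are replaced by the immuno-subunits Psmb8, Psmb9 and Psmb10, which change the peptides that are offered to T cells on MHC class I. A regulatory particle of ATPases (Psmc genes) and non-ATPase subunits (Psmd genes) recognizes and unfolds substrates, and the activators encoded by Psme genes can take its place at the end of the barrel. HSCs are known to keep protein synthesis low and to depend on protein quality control.

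The promoters of the immuno-subunits and of the standard subunits they replace are shown because the ratio between these genes is the main comparison made below. They run from 250 bases before to 50 bases after a RefSeq start of each gene (build GRCm38.p6, the assembly of mm10). Each is on the gene's own strand and uses the first start listed. The windows of Psmb8 and Psmb9 lie wholly inside these genes as counted (34197721 to 34201454 and 34181988 to 34187764). Capitals mark matches to 4 motifs searched on both strands, namely the antioxidant response element TGACNNNGC (the site of Nfe2l1, which drives proteasome genes), the interferon-stimulated response element (a pair of GAAA words spaced by NN), the gamma-activated site TTCNNNGAA and the CCAAT box. Psmb7 had no entry in the promoter table.
Psmb8, chr17:34197945-34198244 (plus strand): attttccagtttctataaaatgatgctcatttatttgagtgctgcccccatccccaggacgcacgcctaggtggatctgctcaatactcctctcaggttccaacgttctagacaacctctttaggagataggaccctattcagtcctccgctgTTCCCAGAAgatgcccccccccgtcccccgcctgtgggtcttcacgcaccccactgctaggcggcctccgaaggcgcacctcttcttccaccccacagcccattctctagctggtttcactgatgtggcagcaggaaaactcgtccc
Psmb9, chr17:34187281-34187580 (minus strand): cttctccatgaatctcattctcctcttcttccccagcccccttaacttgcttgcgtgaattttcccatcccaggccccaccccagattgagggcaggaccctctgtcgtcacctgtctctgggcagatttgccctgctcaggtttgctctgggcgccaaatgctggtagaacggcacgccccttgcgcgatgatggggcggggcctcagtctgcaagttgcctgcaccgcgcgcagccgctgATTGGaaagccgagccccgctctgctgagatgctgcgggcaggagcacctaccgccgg
Psmb10, chr8:105938343-105938642 (minus strand): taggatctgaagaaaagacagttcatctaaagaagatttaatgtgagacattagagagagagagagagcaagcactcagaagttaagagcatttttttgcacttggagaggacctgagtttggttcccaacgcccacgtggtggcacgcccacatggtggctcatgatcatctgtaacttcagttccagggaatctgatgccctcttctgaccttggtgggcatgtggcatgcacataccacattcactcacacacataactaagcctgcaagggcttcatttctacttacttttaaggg
Psmb5, chr14:54617946-54618245 (minus strand): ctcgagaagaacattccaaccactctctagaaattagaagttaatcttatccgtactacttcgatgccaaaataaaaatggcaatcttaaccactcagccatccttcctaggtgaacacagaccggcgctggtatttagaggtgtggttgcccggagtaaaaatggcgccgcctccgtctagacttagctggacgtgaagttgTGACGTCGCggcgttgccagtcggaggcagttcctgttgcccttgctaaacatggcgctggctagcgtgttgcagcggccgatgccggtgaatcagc
Psmb6, chr11:70525107-70525406 (plus strand): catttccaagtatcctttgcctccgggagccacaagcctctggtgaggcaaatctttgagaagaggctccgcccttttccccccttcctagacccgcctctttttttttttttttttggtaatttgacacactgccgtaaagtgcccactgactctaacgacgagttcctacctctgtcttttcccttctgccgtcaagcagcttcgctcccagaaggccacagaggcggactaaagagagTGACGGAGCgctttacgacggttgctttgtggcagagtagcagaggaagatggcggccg

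Psmb8 held a gamma-activated site that began 97 bases before the start, and Psmb9 held a CCAAT box on the other strand 8 bases before it. The standard subunits Psmb5 and Psmb6 each held an antioxidant response element, 47 and 9 bases before the start. Psmb10 held no match. Among the 36 members in the promoter table, 6 (16.7%) had the antioxidant response element against 12.5% of 27025 promoters, and 14 (38.9%) had the CCAAT box against 37.9%. The interferon-stimulated element was found in 4 members (11.1% against 3.49%), namely Psmb3, Psmd4, Psmd9 and Psme1, and the gamma-activated site in 2 (5.56% against 8.47%), Psmb8 and Psmd2. These are matches of letters in a window and say nothing of binding.

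Several members have near-identical copies in the genome, which matters because the sources used here do not say how reads that fit several loci were counted. The clearest case is Psme2, which encodes the beta subunit of the activator PA28, and its copy Psme2b on another chromosome. Their coding sequences in GENCODE M21, both 717 bases long, were the same at 712 positions (99.3%), and the longest stretch with no difference was 311 bases. The 150 coding bases from 394 to 543 hold 3 of the 5 differences, which are printed in capitals.
Psme2: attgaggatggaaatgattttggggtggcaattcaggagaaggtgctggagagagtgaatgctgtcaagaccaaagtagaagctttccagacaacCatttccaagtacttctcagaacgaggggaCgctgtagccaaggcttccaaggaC
Psme2b: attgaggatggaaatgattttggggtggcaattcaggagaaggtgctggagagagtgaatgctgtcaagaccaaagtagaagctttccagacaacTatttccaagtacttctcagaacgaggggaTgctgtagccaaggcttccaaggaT

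Psme2b lies outside the rule, since its symbol does not end in a number. It averaged 177 ± 50.0 CPM over the sets (SD, n = 6) and reached 10 CPM in 74.6% of kept cells, whereas Psme2 averaged 72.0 ± 19.1 CPM and reached it in 72.0%. Reads of the 2 genes cannot be told apart where the sequences are the same. In all, 13 of the 43 members shared over 10% of the 50-base words in their transcripts with transcripts of other genes, with Psme2 (59.3%), Psmb5 (57.1%), Psmb3 (55.8%) and Psma5 (55.4%) the highest. Psmb7 (28.1%) shared words with the neighbouring gene Nek6, and Psmb9 (12.5%) with its neighbour Tap1. For 5 of these, Psma3 (22.0%) among them, detection stood apart from that of the RNA spike-ins. A read of Psmb5 was present in 71.1% of kept cells at a mean of 22.3 reads, whereas spike-ins of like mean reads were present in 21.1% (median of 9 spike-ins). The same held for Psme2 (76.3% against 22.4%), Psma5 (81.5% against 34.1%), Psma3 (81.9% against 33.0%) and Psmb3 (75.9% against 34.1%). No other member was detected in more than 2 times as many cells as its spike-ins. The same 5 members had the least variation between cells for their level, with an excess SD at percentiles 9.89 to 11.8 of the 9689 genes that reached 10 CPM in at least 10% of kept cells. The part that reads from copies play in these values was not tested.

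**Figure D1:**
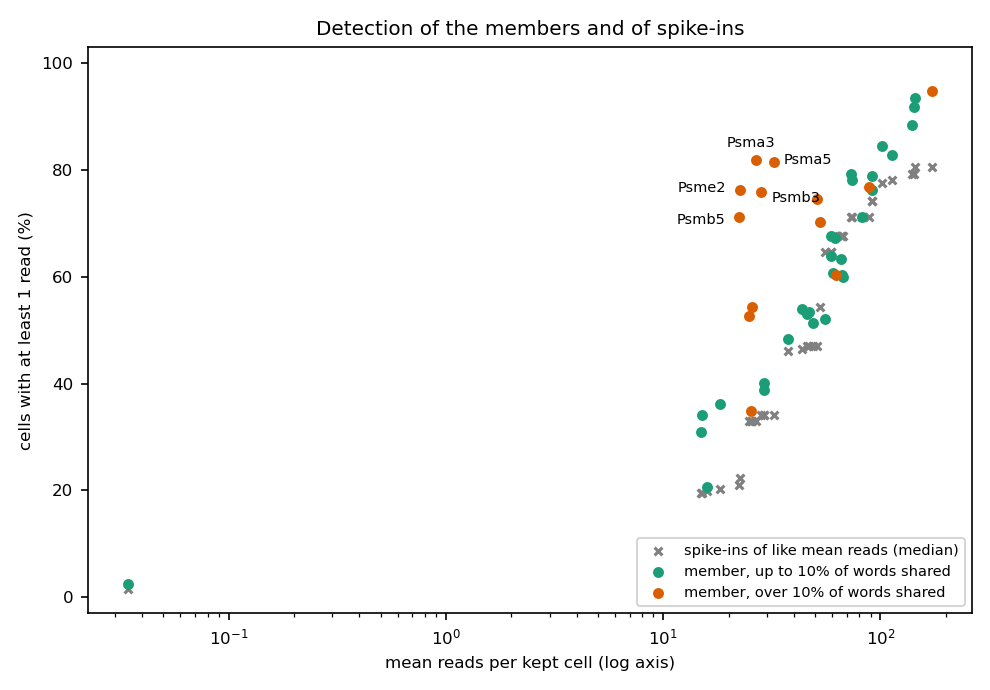
Share of the 232 kept cells with at least 1 read (percent) against mean reads per kept cell (log axis) for the 43 members, colored by whether over 10% of their 50-base words occur in other genes' transcripts. Grey crosses are the median of spike-ins of like mean reads. The 5 labelled members lie between 71.1% and 81.9% of cells, far above the crosses at the same number of reads.

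Nearly the whole set of proteasome genes was detected in HSCs. Of the 43 members, 42 reached 10 CPM in at least 10% of kept cells, and 29 reached it in at least 50% of them. The second share, 29 of 43, stood against a background of 6.89% of 21734 protein-coding genes, 4.28% of all genes in the table and 21.9% of the 9689 genes above the 10% mark. All 14 genes of the alpha and beta rings and all 3 immuno-subunits passed 50%, as did 4 of 6 ATPases, 3 of 3 other base subunits, 3 of 8 lid subunits, 2 of 4 activators and 0 of 3 assembly chaperones. In a single cell a median of 26 members reached 10 CPM, with a range of 5 to 40. After thinning of every cell to 100000 reads, with 1 read as detection, the median was again 26 members. Set L29 HSC-4 was lower, at a median of 19 members against 23 to 28 in the other sets (19 against 24 to 28.5 after thinning). The members together took 0.793% ± 0.0878 of gene reads (SD, n = 6 sets). L29 HSC-4 was the highest of the sets by this measure, at 0.968% against 0.742% to 0.792%, and thus held more reads on fewer detected members. Its low gene number and high mitochondrial share, given above, moved with both values, and their part was not tested.

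**Figure D2:**
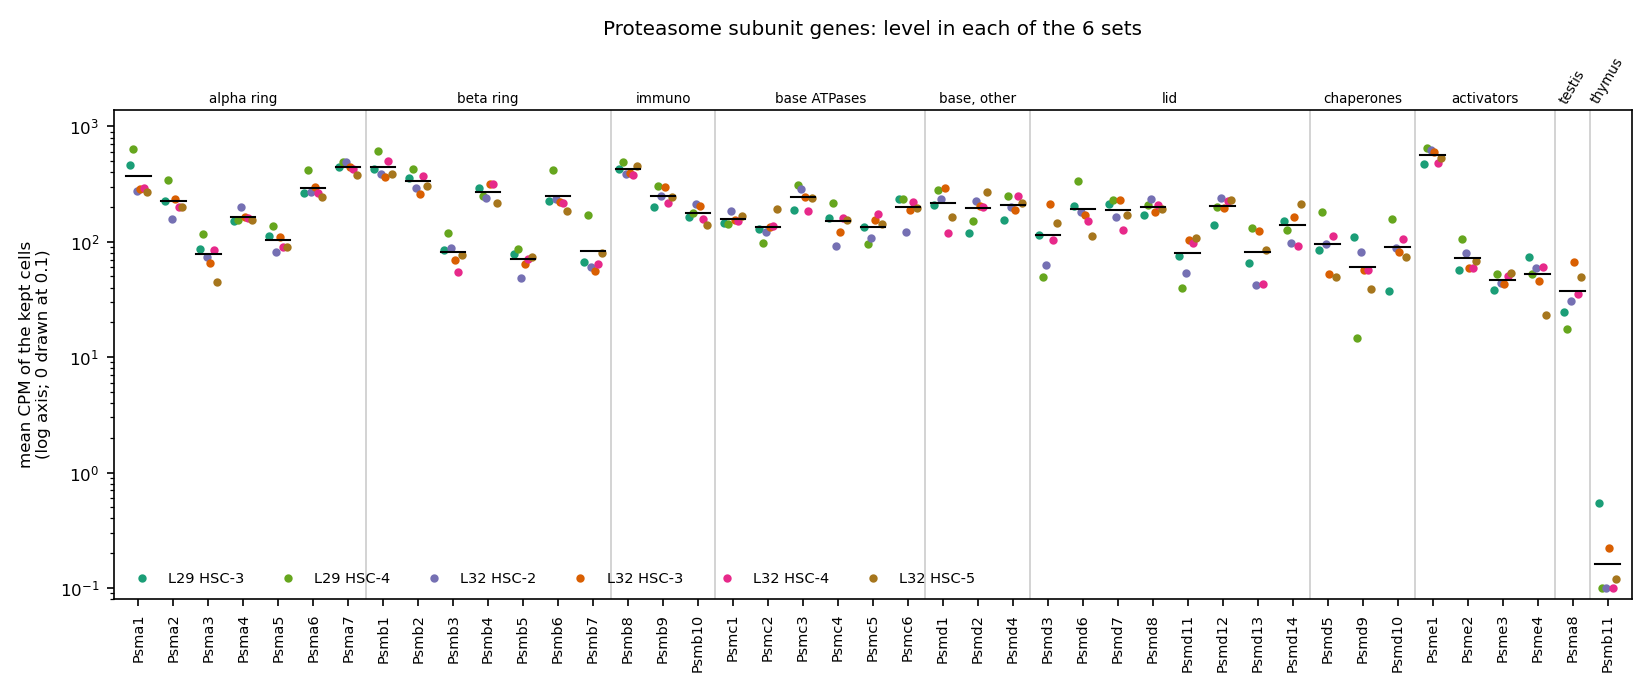
Mean CPM of the kept cells (log axis) of each of the 43 members in the 6 sets (colored points), with a black bar at the mean of the sets, ordered by role. The Psme1 sets lie between 476 and 653 CPM, Psma8 lies between 17.6 and 66.5 CPM, and Psmb11 stays below 1 CPM.

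In the alpha ring, which gates entry into the barrel, the levels spanned 78.6 to 446 CPM (means of sets). Psma7 had 447, 489, 488, 446, 426 and 378 CPM in the 6 sets (446 ± 41.6, SD, n = 6). Its sets differed little. Psma1 had 464, 635, 276, 284, 291 and 269 CPM in the same order (370.0 ± 149.6). Both L29 sets were above all L32 sets for this gene. The same held for Psma3, Psma5, Psmb5 and Psmd6, among others, while Psmd2, Psma8 and Psmc1 had both L29 sets below. The share of all genes that separate in this way was not computed. Psma6 (293 ± 63.9 CPM) and Psma2 (227 ± 64.2) were highest in L29 HSC-4, at 419 and 346 CPM, whereas Psma4 (164 ± 17.6) was highest in L32 HSC-2 at 198 CPM. Psma5 (103 ± 21.1) and Psma3 (78.6 ± 24.0) were detected in 79.3% and 75.0% of kept cells. Psma1 to Psma7 each reached 10 CPM in between 69.0% and 86.2% of cells.

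In the beta ring the structural subunits are the non-proteolytic ones. Psmb1 had 424, 610.0, 384, 366, 499.7 and 384 CPM in the 6 sets (445 ± 94.2). Psmb2 had 359, 426, 294, 261, 374 and 303 CPM (336 ± 60.8). Psmb4, also structural, averaged 271 ± 42.0 CPM and Psmb3 82.2 ± 21.5. Of the proteolytic subunits, Psmb6, the caspase-like site, had 225, 422, 235, 221, 218 and 186 CPM (251 ± 85.4), with L29 HSC-4 far above the other sets. Psmb7, the trypsin-like site, had 66.7, 169, 60.8, 56.0, 64.2 and 80.2 CPM (82.9 ± 43.1), again with L29 HSC-4 on its own at the top. Psmb5, the chymotrypsin-like site, had 77.8, 86.9, 48.6, 64.5, 70.9 and 73.1 CPM (70.3 ± 13.0). The immuno-subunits were present in every set. Psmb8 had 429, 490.4, 388, 396, 382 and 454 CPM (423 ± 42.9) and was detected in 93.5% of cells (Clopper-Pearson 95% interval 89.6% to 96.3%). By set, this share ran more widely, from 79.1% in L29 HSC-4 to 100% in L32 HSC-2. Psmb9 had 199.9, 302, 247, 299.7, 218 and 243 CPM (252 ± 41.7; 73.7% of cells), and Psmb10 had 165, 177, 213, 203, 158 and 139 CPM (176 ± 28.1; 62.9%). The sets of all 3 overlapped between the library series.

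The median share of cells was 52.8% for the ATPases and 47.8% for the lid, against 76.7% for the alpha ring and 73.7% for the beta ring. The ATPases that unfold substrates spanned 134 to 243 CPM, among them Psmc3 (243 ± 51.3), Psmc6 (199 ± 42.6) and Psmc1 (158 ± 16.1), with detection between 47.4% and 66.8% of cells. Psmd1 and Psmd2, the scaffolds of the base, averaged 216 ± 66.3 and 195 ± 53.3 CPM, and Psmd4, a ubiquitin receptor, 209 ± 35.7. In the lid the levels ran from 79.3 ± 28.1 CPM for Psmd11 to 205 ± 36.2 for Psmd12. Psmd6 had 202, 334, 182, 169.8, 150.04 and 111 CPM (192 ± 76.5), with L29 HSC-4 the highest set. Psmd3 (115 ± 59.3 CPM) was instead lowest in L29 HSC-4, at 49.96 CPM, and highest in L32 HSC-3, at 213 CPM. Psmd13 averaged 82.2 ± 39.4 CPM and was detected in 30.6% of cells. Psmd14, the deubiquitinase of the lid, had 151, 127, 97.2, 164, 91.2 and 212 CPM (140.4 ± 45.3). The spread of its sets was wide next to that of Psmd8 (199 ± 23.5), which had the smallest SD of the lid subunits. The assembly chaperones Psmd5, Psmd9 and Psmd10, which leave the base when it is complete, averaged 95.5 ± 48.1, 60.2 ± 33.2 and 90.7 ± 39.5 CPM and were detected in 30.2% to 36.6% of cells.

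The activators were detected in widely different shares of cells. Psme1, the alpha subunit of PA28, which is induced by interferon gamma together with the immuno-subunits, had 476, 653, 621, 596, 479 and 532 CPM (559.5 ± 75.2) and detection in 94.0% of cells (90.1% to 96.7%). Psme3, the nuclear activator PA28 gamma, averaged 46.9 ± 6.00 CPM in 26.3% of cells, and Psme4, the activator PA200, 52.4 ± 17.0 in 24.1%. Both subunits known from another organ were seen in few cells. Psma8, which takes the place of Psma7 in testis, reached 10 CPM in 42 of 232 cells (18.1%, 13.4% to 23.7%), with 24.5, 17.6, 30.4, 66.5, 35.0 and 49.8 CPM in the 6 sets. Psmb11, which is made in cortical thymic epithelium, reached it in 1 of 232 cells (0.431%, 0.0109% to 2.38%).

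Levels can be set against each other only per length, since longer transcripts give more reads. CPM divided by the length in the deposited table, in kilobases (RPKM), put Psmb1 first at 429 ± 91.0 (SD, n = 6 sets), followed by Psmb2 at 279 ± 50.5, Psme1 at 253 ± 34.1, Psma2 at 240.5 ± 68.0 and Psma6 at 238 ± 51.8. At the low end stood Psmb11 at 0.0377 ± 0.0480, Psme4 at 6.25 ± 2.02, Psmd9 at 8.31 ± 4.58, Psmd11 at 12.4 ± 4.41 and Psmd5 at 13.2 ± 6.66. Of the 42 neighbours in this order, only 3 kept it in all 6 sets, Psmb1 over Psmb2, Psma6 over Psmb8 and Psme4 over Psmb11. All other neighbours changed places in at least 1 set. Medians by role were 134 for the beta ring, 125 for the alpha ring, 103 for the immuno-subunits, 94.8 for the ATPases, 57.4 for the lid, 48.2 for the other base subunits and 13.2 for the assembly chaperones. The order depends on the length used. With the length of the principal transcript instead, Psme1 came first at 503 ± 67.6 and Psma7 second at 488 ± 45.5, and Psmb1 fell to 253 ± 53.6. For Psmb1, Psma2 and Psmc6, among others, that transcript (1758, 2911 and 2234 bases) is longer than the table length (1036, 944 and 1564). Reads of these genes were thus divided by bases that the table did not count, which limits this order for them. The rank correlation between both orders was 0.856 across the genes.

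Whether immuno-subunits or standard subunits carry more transcript was asked for each of the 3 replacement pairs. Per table length, Psmb8 stood above Psmb5 and Psmb10 above Psmb7 in every set, while Psmb9 stood below Psmb6 in every set. The log2 ratio of the summed reads of Psmb8 to Psmb5 was 0.87, 0.86, 1.496, 1.24, 0.68 and 1.23 in the 6 sets, a mean of 1.06 ± 0.31 (SD, n = 6), or 2.09-fold. The ratio of Psmb10 to Psmb7 was 2.36, 1.23, 2.60, 3.04, 2.80 and 1.496, a mean of 2.25 ± 0.73, or 4.77-fold. The ratio of Psmb9 to Psmb6 was -1.11, -1.36, -0.97, -0.33, -0.50 and -0.03, a mean of -0.71 ± 0.51, or 0.610-fold. Each had p = 0.03125 in a two-sided exact sign-flip permutation test over the 6 sets, which is the smallest p that 6 sets allow, and the same value after Benjamini-Hochberg adjustment over the 3 pairs.

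These sizes depend on the length. With the length of the principal transcript, the mean log2 ratio was 1.86 for Psmb8 to Psmb5 and 1.07 for Psmb10 to Psmb7 (adjusted exact p = 0.0469 each), and -0.51 for Psmb9 to Psmb6 (adjusted exact p = 0.0938). With the number of 50-base words that occur in no other gene as length, the means were 0.69, 0.59 and -0.39 (adjusted exact p = 0.0938, 0.156 and 0.156), with 6, 4 and 1 of 6 sets above 0. Both of these lengths were chosen after the data had been seen. Psmb5 has 365 such words out of a transcript of 899 bases and Psmb7 has 799 of 1160, so that only part of each transcript is its own. With no length at all, Psmb9 exceeded Psmb6 in 4 of 6 sets (mean 0.25, exact p = 0.281). Psmb8 above Psmb5 was thus the one pair whose direction was shared by all 6 sets under all 4 length settings. Without any 1 of the sets, the adjusted exact p was 0.0625 for each pair, the smallest that 5 sets allow.

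**Figure D3:**
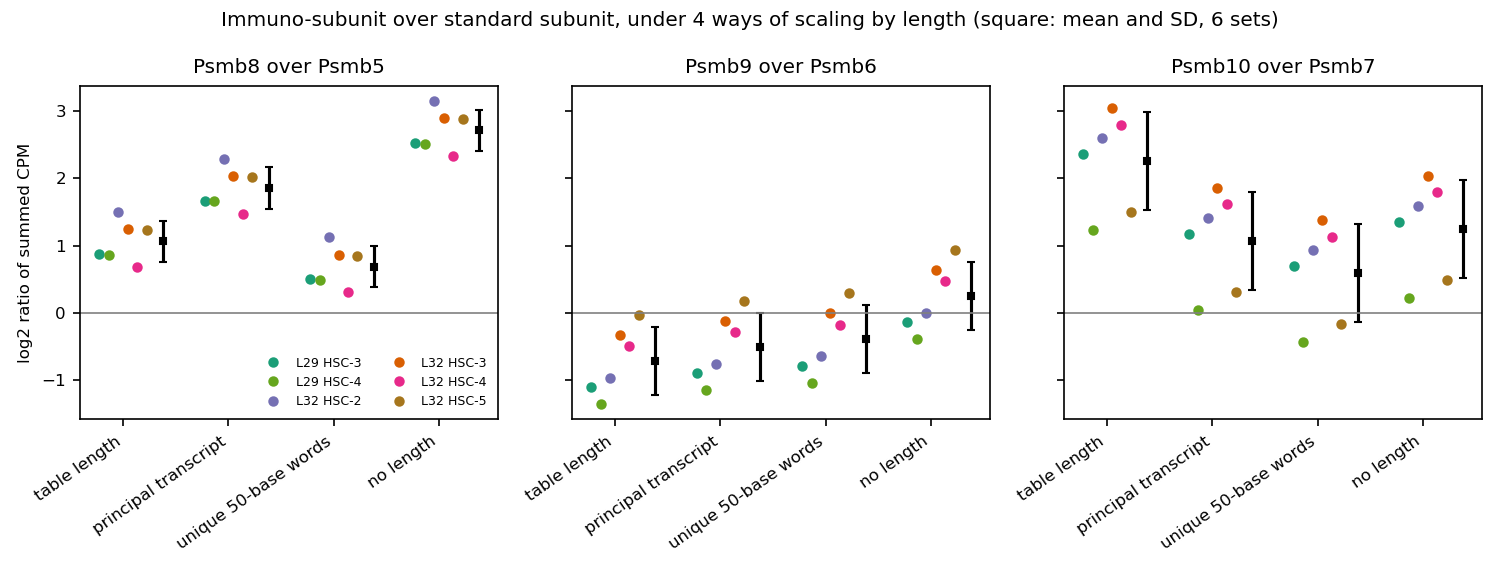
Log2 ratio of the summed CPM of an immuno-subunit to that of the standard subunit it replaces, in each of the 6 sets (colored points) and as mean with SD (black squares), under 4 ways of scaling by length. Psmb8 over Psmb5 lies above 0 in all sets and settings, Psmb9 over Psmb6 moves from below 0 to around 0.25 when no length is used, and Psmb10 over Psmb7 is lowest in L29 HSC-4 and L32 HSC-5.

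In single cells, Psmb8 and Psmb5 both reached 10 CPM in 148 of 232 cells, Psmb8 alone in 69, Psmb5 alone in 7 and neither in 8. Psmb9 and Psmb6 were both present in 141 cells, with Psmb9 alone in 30 and Psmb6 alone in 40. Psmb10 and Psmb7 were both present in 80 cells, Psmb10 alone in 66, Psmb7 alone in 39 and neither in 47. All 3 immuno-subunits reached 10 CPM in 113 cells (48.7%), 2 of them in 82, 1 in 31 and none in 6. Detection was incomplete for spike-ins too, which were present in 64.7% of cells at the mean reads of Psmb10 and in 33.0% at those of Psmb7 (medians).

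Members of 1 complex might vary together from cell to cell. Partial Spearman correlations were computed within each set on log2(CPM/10 + 1), with the plate and the ranks of detected genes and of total reads held fixed, and were averaged over sets with weights by cell number. They are descriptions of sparse counts from shared libraries and carry no test. The median over the 861 pairs of the 42 members was 0.020, with 62.0% above 0, against 0.0020 and 51.1% over all 46933516 pairs of the 9689 genes, whose 5th and 95th percentiles were -0.115 and 0.124. The 91 pairs within the alpha and beta rings had a median of 0.045 (75.8% above 0), the 136 pairs of base and lid 0.021 and the 238 pairs between core and regulatory particle 0.023. The 28 pairs of the CCT chaperonin, another large ring complex, had a median of 0.057 (75.0% above 0). By set, the median over member pairs was 0.0084 to 0.061, with L32 HSC-2, the set with the fewest cells, at the top.

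Single pairs reached at most 0.240 (Psma7 with Psme2, positive in 6 of 6 sets). Psmb3 with Psmb10 had 0.232 and Psma4 with Psmc4 0.208, each positive in 6 of 6 sets, and Psmd8 with Psmd14, both of the lid, 0.212 in 5 of 6. The lowest value was -0.229, for Psmd14 with Psme4, negative in 6 of 6. Of the 861 pairs, 24 (2.79%) were positive in all 6 sets and 7 negative in all. The same shares over all pairs of tested genes were not computed. These counts, and the numbers of sets given for single pairs, therefore have no background to be read against. The 3 immuno-subunits were not a tight group among themselves, with 0.089 for Psmb8 with Psmb9, 0.031 for Psmb9 with Psmb10 and -0.020 for Psmb8 with Psmb10. Their 6 pairs with the PA28 genes Psme1 and Psme2 were all above 0, between 0.074 (Psmb8 with Psme2) and 0.107 (Psmb9 with Psme1). Their 93 pairs with the 31 subunits of the standard core and regulatory particle had a median of 0.018. The mean log value of the 3 immuno-subunits against that of Psme1 and Psme2 gave a rho of 0.218, 0.104, 0.126, 0.361, 0.287 and 0.172 in the 6 sets, and against that of the 31 standard subunits 0.038, 0.032, 0.332, -0.059, 0.116 and 0.409.

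**Figure D4:**
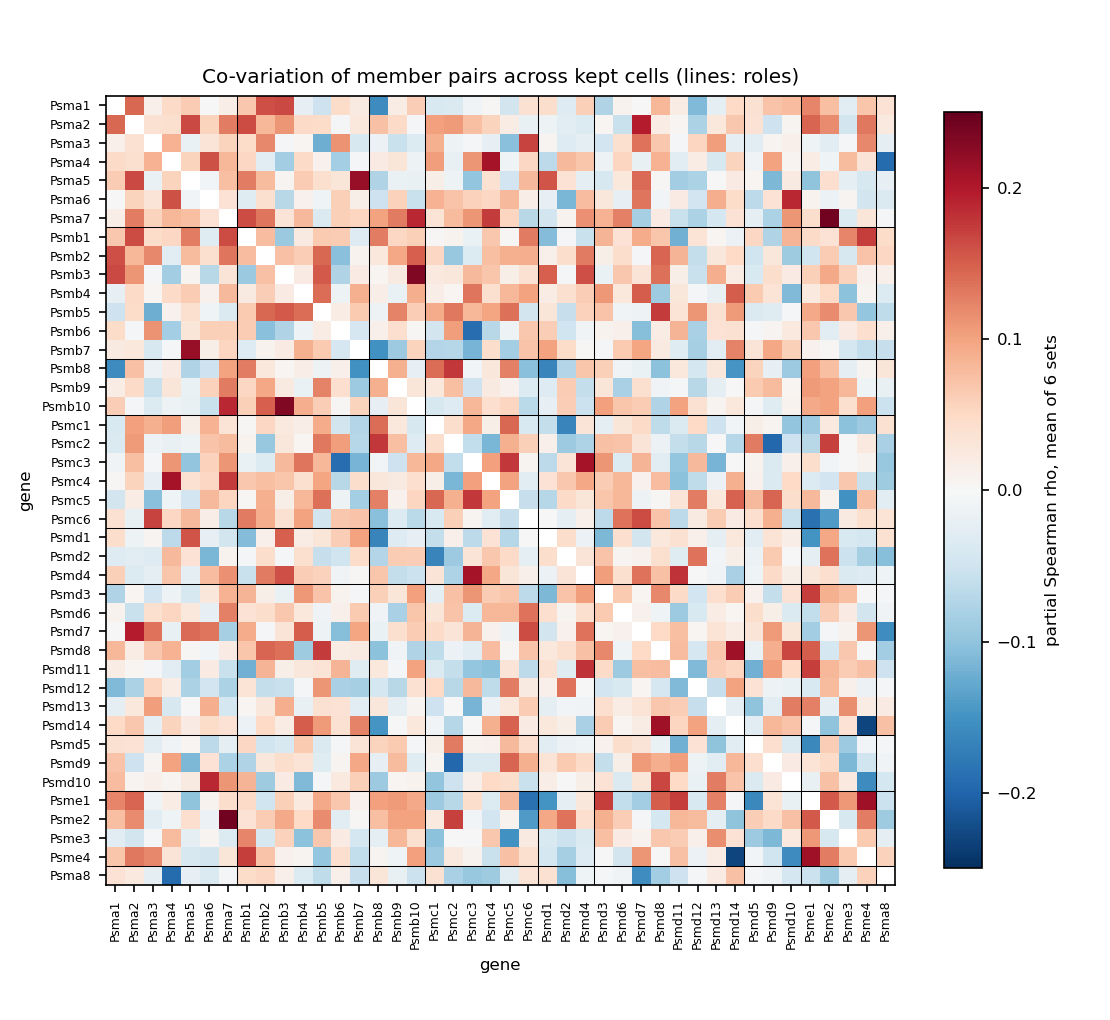
Partial Spearman rho (mean of 6 sets, colour from -0.25 in blue to 0.25 in red) for each pair of the 42 members that reached 10 CPM in at least 10% of kept cells, ordered by role with black lines between roles. Colours are pale almost everywhere, with more red than blue inside the alpha and beta rings and no block that stands out.

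To ask in which cells proteasome transcripts were higher, each member was correlated within each set with the mean log value of 5 gene lists, and the 6 values were tested against 0 in limma with Benjamini-Hochberg adjustment over 9689 genes. The clearest association was with growth, a list of 24 genes for ribosome making and biosynthesis such as Npm1, Ncl, Nop56 and Myc. Of 42 members, 36 had a positive mean rho (53.2% of all genes did) and 2 passed the test, against a background of 1.75% of all genes called positive (0.516% were called negative). The median rho was 0.109 for the members and 0.0072 for all genes. Psma7 had a rho of 0.109, 0.070, 0.726, 0.287, 0.272 and 0.521 in the 6 sets (weighted mean 0.302 ± 0.251, SD over sets, SE of the mean Fisher z 0.0726, adjusted p = 0.00521 by limma). Psme2 had 0.431, 0.102, 0.342, 0.429, 0.131 and 0.250 (mean 0.288 ± 0.144, SE 0.0713, adjusted p = 0.00729 by limma). Both were positive in 6 of 6 sets. Psma7 was also high in 38 left-out wells that held more spike-in reads than gene reads. It took 1148 CPM there, compared with 449.9 CPM among the kept cells sorted in those sets. Of the 42 members, 6 were higher in these wells (21.3% of 9689 genes were), and the part of such RNA in the association was not tested. Psme2b, the copy that shares most of the sequence of Psme2, passed as well (mean 0.251 ± 0.105, 6 of 6 sets, adjusted p = 0.0254 by limma), so that the call cannot be assigned to one of them.

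The next members did not pass. Psmb10 and Psmc2 both had a mean rho of 0.204, positive in 6 of 6 sets (adjusted p = 0.0954 and 0.0960 by limma), and Psma4 and Psmb2 had 0.197 in 5 of 6 sets. At an unadjusted p under 0.05, 16 of 42 members were positive and 0 negative, and 15.2% of all genes reached that p in either direction. By role the median rho with growth was 0.152 in the alpha ring (7 of 7 positive), 0.139 in the beta ring (6 of 7), 0.132 in the ATPases (6 of 6), 0.121 in the lid (7 of 8) and 0.032 in the immuno-subunits (2 of 3). Psmb8 had 0.032 and Psmb9 -0.065, and Psme1 had -0.043.

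Psma7 was not called without L32 HSC-5 (mean rho 0.253, adjusted p = 0.0806 by limma), and without L32 HSC-2, the set with the fewest cells, its mean rho was 0.249 (adjusted p = 0.0467). That of Psme2 was lost without L29 HSC-3 (0.248, adjusted p = 0.0717) and without L32 HSC-3 (0.252, adjusted p = 0.0920). With the plate as the only covariate, 15 members passed for growth and 9 for the cell cycle, but so did 1507 and 1435 of all 9689 genes, compared with 220 and 49 with all covariates (both directions).

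The other scores gave no call among the members. With the cell cycle list (S phase and G2/M genes), 33 of 42 members were positive (56.9% of all genes were) and 0 passed, where 0.464% of all genes were called positive and 0.0413% negative. The 3 highest were Psmd7 (0.236 ± 0.100, 6 of 6 sets, adjusted p = 0.0833 by limma), Psmc3 (0.211 ± 0.202, 5 of 6, adjusted p = 0.169) and Psmc4 (0.199 ± 0.0972, 6 of 6, adjusted p = 0.202). All 6 ATPases and all 7 alpha subunits had a mean above 0. With the long-term HSC list (Procr, Mllt3, Vwf, Ly6a and others), 32 of 42 members were negative and 10 positive (50.8% of all genes were positive) and 0 passed, where 0.423% of all genes were called negative. The lowest were Psmc3 (-0.218 ± 0.104, negative in 6 of 6 sets, adjusted p = 0.110 by limma), Psmc5 (-0.186 ± 0.225, 5 of 6), Psmb5 (-0.180 ± 0.118, 6 of 6) and Psmc4 (-0.177 ± 0.0938, 6 of 6). At an unadjusted p under 0.05, 5 members were positive with the cell cycle and 7 were negative with the long-term HSC list, and 10.9% and 11.3% of all genes reached that p in either direction.

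For the immuno-subunits the lists of interest were MHC class I presentation and interferon response. With the class I list (B2m, H2 genes, Tap1, Tap2 and others), all 3 had a mean rho above 0. It was 0.223 for Psmb9, 0.126 for Psmb10 and 0.011 for Psmb8. A mean above 0 was also found for 29 of the 42 members, 8 of 8 lid subunits among them, and for 55.0% of all genes. The median rho over all genes was 0.0091. Psmb9 was positive in 6 of 6 sets, with 0.295, 0.334, 0.213, 0.138, 0.091 and 0.225 (SE of the mean z 0.0704), but its adjusted p by limma was 0.405, and 0 of 9689 genes passed for this score, 0% in either direction. Tap1, which is in this list, shares sequence with Psmb9, and without Tap1 in the list the mean rho of Psmb9 was 0.191 (adjusted p = 0.528 by limma). The standard subunit Psmb5 also had 0.185 in 6 of 6 sets (adjusted p = 0.608 by limma) and Psmb6 -0.144, negative in 6 of 6. At an unadjusted p under 0.05, 4 members (2 positive and 2 negative) and 6.67% of all genes stood out. With the interferon list, the means were 0.0997 for Psmb9, 0.049 for Psmb8 and 0.011 for Psmb10, 15 of 42 members were positive (50.0% of all genes were) and 0 passed, against 0.155% of all genes called positive. At an unadjusted p under 0.05 there were 3 of 42 members (1 positive and 2 negative), and 5.98% of all genes reached that p. The member with the lowest mean was Psma6 at -0.211 (negative in 6 of 6 sets, adjusted p = 0.505 by limma).

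**Figure D5:**
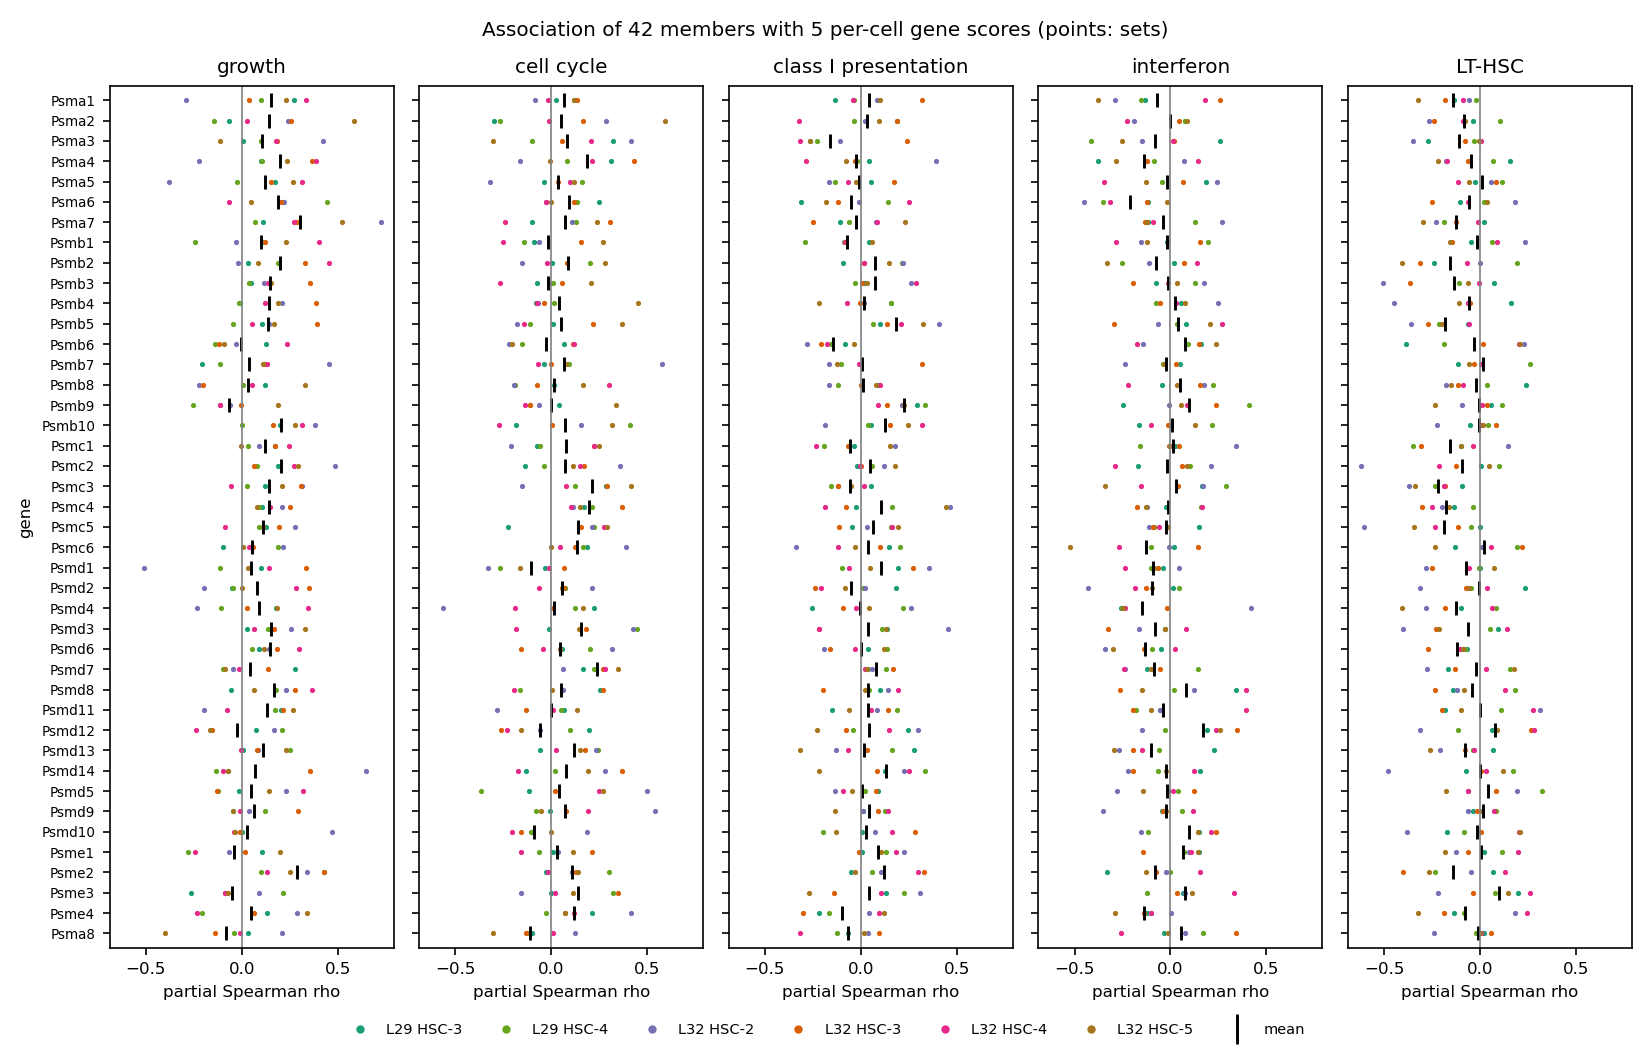
Partial Spearman rho of each of the 42 members with 5 gene scores, as 1 colored point per set and a black tick at the weighted mean. The ticks lie to the right of 0 for 36 members with growth and for 33 with the cell cycle, and to the left for 32 with the long-term HSC list, while the points of the sets spread widely around them.

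A score over the 31 standard subunits of the core and regulatory particle was used to describe their shared part. Its rho with the growth score was 0.331, 0.288, 0.297, 0.753, 0.671 and 0.517 in the 6 sets (mean 0.513 ± 0.202). With the CCT chaperonin it was 0.338 ± 0.206 (5 of 6 sets positive), with the cell cycle 0.321 ± 0.229 (5 of 6) and with the long-term HSC list -0.267 ± 0.316 (1 of 6). The sets disagreed on the last, which was 0.228 in L29 HSC-4 and -0.587 in L32 HSC-2. All lists are measured in the same libraries, so these values are given without a test.

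Genes other than the members were ranked by rho with the score over the 31 standard subunits, across cells within each set, averaged over sets. The highest protein-coding genes were Ptma, which encodes prothymosin alpha (mean rho 0.399), Cfl1, the actin-severing factor cofilin (0.389), and Ran, the GTPase of nuclear transport (0.372). Next came Gm10131 (0.357), Nme1, a nucleotide kinase that is also in the growth list (0.343), and Actr3, a subunit of the actin nucleator Arp2/3 (0.338). The other 4 of the top 10 were pseudogenes, and 2 of them, Gm9800 (0.449) and Gm4617 (0.406), share 68.3% and 86.5% of their 50-base words with Ptma. Likewise Gm13461 (0.352) shares 59.7% with Ran, Gm8822 (0.339) 52.8% with Actr3, and Gm10131 92.6% with Erh. These entries are thus not independent of their parent genes. All 10 were positive in 6 of 6 sets. At the other end stood Rpl9-ps4 (-0.346), a copy of the ribosomal gene Rpl9, then Gm43696 (-0.305), Ezh1, a histone methyltransferase of Polycomb (-0.289), Txnip, an inhibitor of thioredoxin and glucose uptake (-0.285), and Gm13050 (-0.284). All of these were negative in 6 of 6 sets except Gm43696, which was positive in 1. Over all 9689 genes the median was 0.018, with 5th and 95th percentiles of -0.133 and 0.173.

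Other genes of the ubiquitin-proteasome system were taken from a list of 31, of which 30 were found, all 30 at 10 CPM in at least 10% of kept cells. The highest were Ubb, a ubiquitin gene (479 CPM, 100% of cells), Sem1, a small lid subunit (341 CPM, 93.5%), Uba1, the main ubiquitin-activating enzyme (321 CPM, 66.4%), and Pomp, the chaperone of core assembly (238 CPM, 77.6%). With growth, 22 of 30 were positive (median rho 0.035) and 1 passed, where 53.2% of all genes were positive and 1.75% were called positive. It was Uchl5, a deubiquitinase bound to the regulatory particle, with a mean rho of 0.285 ± 0.180, positive in 5 of 6 sets (SE 0.0716, adjusted p = 0.00845 by limma). Sem1 and Pomp had 0.143 and 0.194. No gene of this list passed for the other 4 scores.

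Between library series 32 (4 sets) and 29 (2 sets), no member was called by edgeR's quasi-likelihood test on summed reads. In that test 0 of 16476 genes (0%) were called at an adjusted p of 0.05 in either direction, while 3 members and 8.70% of all genes had an unadjusted p under 0.05. The median log2 difference was -0.16 for the 42 members, 27 of them lower in series 32, and 0.07 for all genes. The share of all genes lower in series 32 was not computed, so the count of 27 has no background. Psma1 was the lowest in p, at -0.82 (SE 0.194, adjusted p = 0.373 by edgeR), followed by Psmb6 at -0.73 (SE 0.271, adjusted p = 0.531). DESeq2 called 1 member, Psma1, at -0.80 (SE 0.247, adjusted p = 0.0445), where it called 0.674% of all genes lower and 1.81% higher in series 32. Without L29 HSC-4, 17 of the 42 members were lower, and the median difference was 0.08 for the members and 0.14 for all genes. The sign of the members' median thus rested on that set, while it stayed below the median of all genes. A call of 0 with 2 sets on one side does not show that the series are alike.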

How the data were processed

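Single HSCs were sorted into wells, and poly(A) RNA was made into cDNA by template switching, amplified for 22 PCR cycles and cut by tagmentation from 700 pg, per the labels' protocols. The deposited values are raw read counts per gene that the authors made with GSNAP and featureCounts 1.6.2 on mm10, per the submitters' processing notes, and the table's name gives Ensembl 87. Strand and multi-mapping settings are not given in the sources used here.

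Counts were scaled to CPM over Ensembl genes, leaving out the spike-ins (11.7% of all reads), and taken as log2(CPM/10 + 1). Detection meant 10 CPM, which was 2.80 reads in the median cell. The tests against gene scores ran on 9689 genes detected in at least 10% of kept cells. Within each set, partial Spearman correlations given ranks of genes detected, total reads and the plate were turned into Fisher z and tested over the 6 sets with limma 3.58.1, weighted by cells, with Benjamini-Hochberg adjustment at 0.05. Summed counts per set were compared between library series with edgeR 4.0.16, and with DESeq2 1.42.0 as an alternative, on 16476 genes that passed a filter on low counts. Ratios were tested by an exact sign-flip permutation over sets. Shared words of 50 bases came from GENCODE M21 transcripts and promoters from RefSeq.

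All members are described. Of the other ubiquitin-proteasome genes, those that passed a test and the 4 with the highest mean CPM were named, and of all genes the 10 highest and 5 lowest in rho with the proteasome score. The members and lists were chosen with earlier results of these data known. Of the 282 cells, those under 100000 gene reads or 1000 genes were left out, and no pair of cells held identical values. The full list of HSC markers is not reported here.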

Additional observations from a re-analysis of the deposited data

Results flagged for a closer look

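In 47 groups of 6 sets examined for a set far from the others, 5 stood out. For a single group chance gives about 1 in 20. The groups come from the same cells and are not independent, so their number cannot be set against that rate. In L29 HSC-4, Psma6 had a mean of 419 CPM against 245 to 298 in the other sets, Psmb6 had 422 against 186 to 235, and Psmb7 had 169 against 56.0 to 80.2. The same set had the highest share of gene reads on the members, 0.968% against 0.742% to 0.792%, a share that includes the reads of these genes. In L32 HSC-2, Psma4 had 198 CPM against 152 to 164.

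The 38 left-out wells with more spike-in reads than gene reads held 616795 gene reads in all, and no comparison used them. Some members had a higher CPM there than in the 66 kept cells of the same sets. Psmd14 had 1347 CPM there against 129.6, Psma7 1148 against 449.9, Psmb4 389 against 275, Psmc4 342 against 97.8, Psma5 165 against 102 and Psme3 61.6 against 36.5. A seventh member, Psmb11, had 1 read there. Of the 9689 genes detected in at least 10% of kept cells, 21.3% were higher in these wells.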

How the results depend on the processing

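Leaving out 1 set at a time gave log2 ratios per length of 0.98 to 1.14 for Psmb8 to Psmb5, -0.85 to -0.59 for Psmb9 to Psmb6 and 2.10 to 2.46 for Psmb10 to Psmb7. All of these had an adjusted exact p of 0.0625, the smallest that 5 sets allow, so they cannot show whether the calls are stable. With unique 50-base words as length (chosen after the data had been seen) the ratios were 0.69, -0.39 and 0.59, none past the threshold. With the principal transcript as length, also chosen later, Psmb9 to Psmb6 was -0.51 (adjusted exact p = 0.0938). With no length it turned to 0.25 (exact p = 0.281). With 1 set left out, 1 to 2 members were called with the growth score, where 81 to 208 of all genes were called. With the plate as only covariate the number of members was 15. That setting also gave 9 for the cell cycle, and it called 1507 and 1435 of all 9689 genes for the same scores. Adding the mitochondrial share and the gene to spike-in ratio as covariates gave 1 member call with the long-term HSC score. In that setting 62 of all 9689 genes were called. DESeq2 called 1 member between library series. The cause was not tested. The number of members at 10 CPM in at least 50% of cells stayed between 28 and 34, their share of gene reads between 0.758% and 0.828%, and the median rho of their pairs between 0.015 and 0.041 under all alternatives run. Conditions could not be compared in pairs because all cells form 1 group, while the ratios of subunits were taken within each set. Depth limits detection, since 10 CPM was 2.80 reads in the median cell.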
